A study of Mus musculus with 4 samples.

Results

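AP-1 is a family of dimeric transcription factors, and 10 of its genes were followed in natural killer (NK) cells of mouse bone marrow: Fos, Fosb, Fosl2, Jun, Junb, Jund, Atf3, Batf, Maff and Mafk. They were found by their symbols among the 37310 genes of the deposited tables. Each symbol had exactly 1 row, so the total count that would have chosen between repeated rows decided nothing. The gene family itself was chosen by its differences between dKO and Ctrl in these same libraries, as seen in earlier results, so each p-value below describes a gene within the fit over all genes and lends no independent support to the list. The mutant mice (dKO) carried the genotype Gabpb1l-/-Gabpb2-/-, so that both Gabpb2 and the long isoform of Gabpb1 were missing. Littermates labelled Ctrl were the comparison, and the labels give neither their alleles nor whether a library pooled several mice. All mice were C57BL/6 and aged 6 to 8 weeks, and each group had 2 biological replicates. Cells without surface CD3e and with NK1.1 and CD49b were sorted straight into Trizol, and libraries followed the Smart-seq2 method for full-length cDNA. The question was which transcripts differ when NK cells lack the tetramer that the DNA-binding subunit Gabpa forms with its Gabpb partners.

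AP-1 proteins belong to the basic leucine zipper (bZIP) class: a zipper of leucines pairs 2 proteins, and the basic region beside it grips DNA. Fos proteins cannot pair with themselves and need a Jun partner, whereas Jun proteins can also pair with each other. BATF and the small Maf proteins MAFF and MAFK have no transactivation domain of their own, and ATF3 often acts as a repressor. Fos, Fosb, Jun, Junb and Atf3 are immediate early genes, which are transcribed within minutes of a stimulus from factors already present in the cell. In lymphocytes AP-1 acts with NFAT downstream of activating receptors, and BATF acts with IRF4 or IRF8.

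Gene counts summed to 31469644 and 30233870 in the dKO libraries and to 34724516 and 33299226 in the Ctrl libraries. Gabpb2, which the dKO genotype lacks, was at 2.64 and 2.85 CPM in dKO cells, against 36.5 and 30.4 CPM in Ctrl cells, where CPM is the count scaled to library size by the TMM method. A count over the whole Gabpb1 gene checks nothing about its long form; it was at 81.2 and 79.4 CPM in dKO and 57.1 and 52.0 CPM in Ctrl (edgeR adjusted p = 0.273). Gabpa was at 101 and 98.4 CPM in dKO and 81.6 and 80.8 CPM in Ctrl (adjusted p = 0.578). The sorted cells carried NK markers in every library: Ncr1, the NKp46 gene, lay between 1391 and 1795 CPM, and all 14 listed NK markers were detected and none was called. The NK markers summed to 16254 and 16262 CPM in dKO and 19768 and 19212 CPM in Ctrl, with 10 of the 14 log2 fold changes negative. Markers of other cells moved with genotype in part. Of 13 T cell markers, 12 had a negative log2 fold change (median of the list -1.49), and Cd3e and Trac were called lower. Cd3e was at 8.90 and 12.2 CPM in dKO and 47.5 and 52.5 CPM in Ctrl. For Trac the values were 14.3 and 20.8 CPM in dKO and 58.2 and 73.2 CPM in Ctrl. The list summed to 438 and 484 CPM in dKO and to 608 and 685 CPM in Ctrl. Lef1, which was not called, alone held 208 and 229 CPM of these sums in dKO and 213 and 261 CPM in Ctrl. Neutrophil markers summed to 1438 and 2335 CPM in dKO and 2255 and 2898 CPM in Ctrl, and B lineage markers to 123 and 154 CPM in dKO and 130.2 and 276 CPM in Ctrl, with no member of either list called. All 10 B lineage log2 fold changes were negative (median -0.57). Of the 14 neutrophil values 11 were negative (median -0.06), the lowest at -1.99 for Elane and -1.97 for Mpo. None of the monocyte, basophil, erythroid, platelet and dendritic cell markers was called either, and no marker on any of these lists was at 0 in all libraries. Reads outside annotated genes made up 23.8% and 24.3% in dKO and 18.1% and 21.5% in Ctrl. Xist had 2 and 9 counts in dKO and 6066 and 6430 counts in Ctrl, while Y-linked Ddx3y had 8933 and 6757 counts in dKO and 0 in both Ctrl libraries. Sex, which the labels do not give, and genotype therefore cannot be told apart in any AP-1 value, and the part of the other measures in those values was not tested.

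Of the 10 AP-1 genes, 3 rose in dKO cells and none fell: Fosb by the largest fold, then Fos and Jun, a little over 2-fold each (edgeR quasi-likelihood test, adjusted p under 0.05 over 13904 tested genes). The other 7 genes did not pass. Across all tested genes 0.611% were called, 0.316% higher and 0.295% lower in dKO. All 10 passed the filter on low counts, and the lowest single count was 17, for Jund. The median log2 fold change of the 10 was 0.41, beside 0.01 over all tested genes, with 7 positive and 3 negative values. In 5 of the 10 both dKO libraries lay above both Ctrl libraries, and in 1, Batf, both lay below. The same held for 21.7% and 19.9% of all tested genes, 41.6% together. Nothing about the members can be read from these counts, since the list was drawn up from this comparison. With 2 libraries per group an exact two-sided permutation test cannot go below 0.333, so each p leans on the variance that edgeR pools over genes. These are bulk samples, in which more cells with a transcript and more transcript per cell cannot be told apart.

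**Figure D1:**
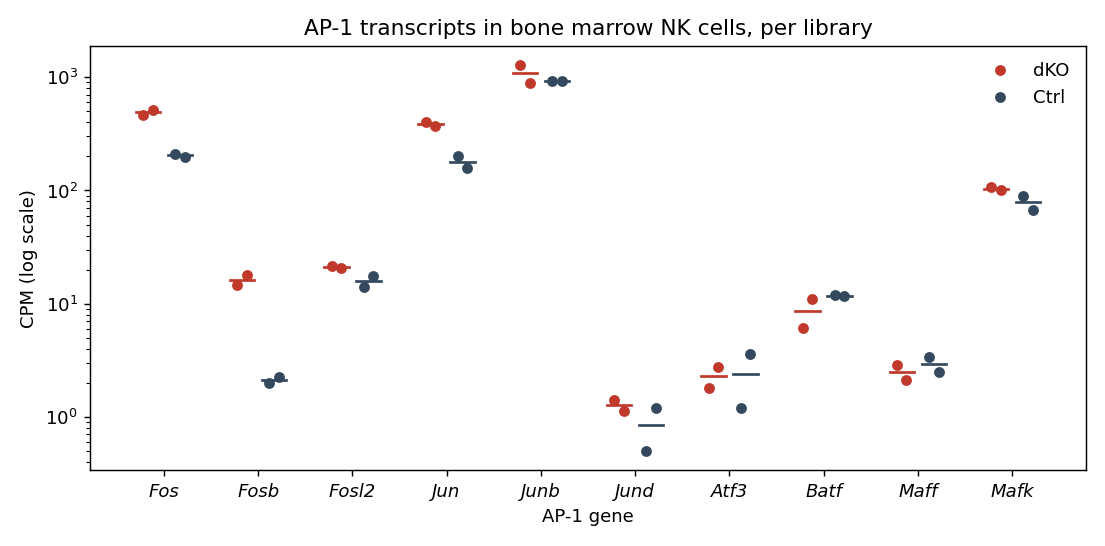
CPM of each AP-1 gene on a log scale, with 1 point per library and a line at the group mean (2 libraries each, dKO left of Ctrl). The 2 dKO points stand clear above the 2 Ctrl points for Fos, Fosb and Jun, and the groups overlap for Junb, Jund, Atf3 and Maff.

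The Fos subfamily supplies the partner that Jun proteins bind most tightly. Fos, its founding member, had 462 and 517 CPM in dKO libraries, against 212 and 197 CPM in Ctrl libraries. The lowest dKO library held over 2 times the Fos of the highest Ctrl library. Fos averaged 489.6 ± 39.0 CPM in dKO and 204 ± 10.2 CPM in Ctrl (SD, n = 2 each), a log2 fold change of 1.26 (SE 0.15, edgeR adjusted p = 0.0144). The gene lies on chromosome 12 from 85473890 to 85477273 on the plus strand (GRCm38), overlaps no other annotated gene, and ranked number 30 of all tested genes by p.

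Fosb, a close relative of Fos with the same partners, was much rarer and differed more. It had 469 and 545 counts in dKO libraries and 68 and 74 counts in Ctrl libraries, which is 14.6 and 18.0 CPM in dKO against 2.00 and 2.23 CPM in Ctrl. The groups were far apart and each was tight. The ratio of means was 7.72 (log2 fold change 2.95, SE 0.32, edgeR adjusted p = 0.00790). Fosb lies on chromosome 7 from 19302696 to 19310051 on the minus strand (GRCm38). Fosl2, which encodes the longer-lived protein FRA-2, had 21.4 and 20.7 CPM in dKO and 14.1 and 17.7 CPM in Ctrl. Its groups did not overlap in CPM, but the log2 fold change of 0.41 (SE 0.24) did not pass (edgeR adjusted p = 0.623).

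Jun is the main partner of Fos and can also act as a homodimer. It had 403 and 369 CPM in dKO libraries, against 202 and 158 CPM in Ctrl libraries. The groups did not overlap, and the Ctrl libraries were less alike than for Fos. Jun averaged 385.6 ± 24.1 CPM in dKO and 179.8 ± 31.0 CPM in Ctrl (SD, n = 2 each), with a log2 fold change of 1.10 (SE 0.17, edgeR adjusted p = 0.0386). The call was lost without Ctrl replicate 2 (log2 fold change 0.94, adjusted p = 0.0575) and without dKO replicate 1 (1.04, adjusted p = 0.0633). Such a fit leaves 1 library in that group, which is assumed to vary like the 2 libraries of the other. Jun lies on chromosome 4 from 95049034 to 95052222 on the minus strand (GRCm38). The antisense gene Junos, on the plus strand from 95051534, overlaps its start and had at most 17 counts in any library. Reads of such a pair cannot be told apart where counting ignores strand, and no source used here states the strand setting.

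Junb, a weaker activator than Jun that can oppose it, was the most abundant AP-1 transcript and did not pass the test. It had 1279 and 899 CPM in dKO libraries and 922 and 930.1 CPM in Ctrl libraries. Replicate 1 of dKO was the highest and replicate 2 of dKO the lowest, so the Ctrl pair sat inside the dKO range. The log2 fold change was 0.23 (SE 0.19, edgeR adjusted p = 0.751), and without dKO replicate 1 it was -0.042. The 3′ end of Junb overlaps Prdx2 on the opposite strand, which had 3785 and 4706 counts in dKO and 5244 and 4958 counts in Ctrl, so reads of the 2 genes may not be separable there.

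Jund, usually the steadily expressed Jun gene, had only 45 and 34 counts in dKO libraries and 17 and 40 counts in Ctrl libraries. The groups overlapped, and a log2 fold change of 0.57 had an SE of 0.77 (edgeR adjusted p = 0.872). The gene lies on chromosome 8 from 70698949 to 70700616 (GRCm38), and the antisense gene Gm11175 covers its bases 70699162 to 70700080 and is listed at 0 counts in all 4 libraries. The expected counts of the RSEM tables were as low, at 25.5 and 19.2 in dKO and 7.56 and 23.1 in Ctrl, and were not whole, as when reads are divided between rows. The level of Jund is thus uncertain, and the part of shared reads in it was not tested.

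Batf, which pairs with Jun proteins and binds DNA together with IRF4 or IRF8, had 6.07 and 11.0 CPM in dKO libraries and 11.8 and 11.7 CPM in Ctrl libraries. Only dKO replicate 1 stood clearly lower, and the log2 fold change of -0.46 (SE 0.34) did not pass (edgeR adjusted p = 0.723). Leaving out dKO replicate 1 gave -0.10, and leaving out dKO replicate 2 gave -0.95. Atf3, a stress-induced gene, had 1.80 and 2.75 CPM in dKO and 1.20 and 3.62 CPM in Ctrl. Both extremes were Ctrl libraries, and the log2 fold change was -0.083 (SE 0.62, edgeR adjusted p = 0.986).

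The small Maf genes encode partners of the CNC factors such as NRF2 and BACH1. Mafk, the abundant one, had 107 and 100.5 CPM in dKO libraries and 89.5 and 67.3 CPM in Ctrl libraries. Its groups did not overlap, with a log2 fold change of 0.40 (SE 0.19) that did not pass (edgeR adjusted p = 0.523). Its 3′ end overlaps Tmem184a on the opposite strand, at 13 and 38 counts in dKO and 16 in both Ctrl libraries. Maff had 2.86 and 2.12 CPM in dKO and 3.35 and 2.47 CPM in Ctrl, which overlap (log2 fold change -0.22, SE 0.46, edgeR adjusted p = 0.921). Here the 2 deposited quantifications parted: RSEM gave Maff 9 and 2 expected counts in dKO and 20 and 13 in Ctrl, where the whole-number files gave 92 and 64 in dKO and 114 and 82 in Ctrl. The whole-number count of Maff was thus 5.70 to 32.0 times the expected count, beside a median of 2.05 to 2.07 over genes with more than 50 expected counts. Of the 3 called genes, Jun lay below that median, at 1.48 to 1.49 times. Fos, at 2.21 to 2.24 times, and Fosb, at 2.48 to 2.85 times, lay above it. From the RSEM counts the log2 fold change of Maff was -1.44 (SE 0.96, edgeR adjusted p = 0.679).

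**Figure D2:**
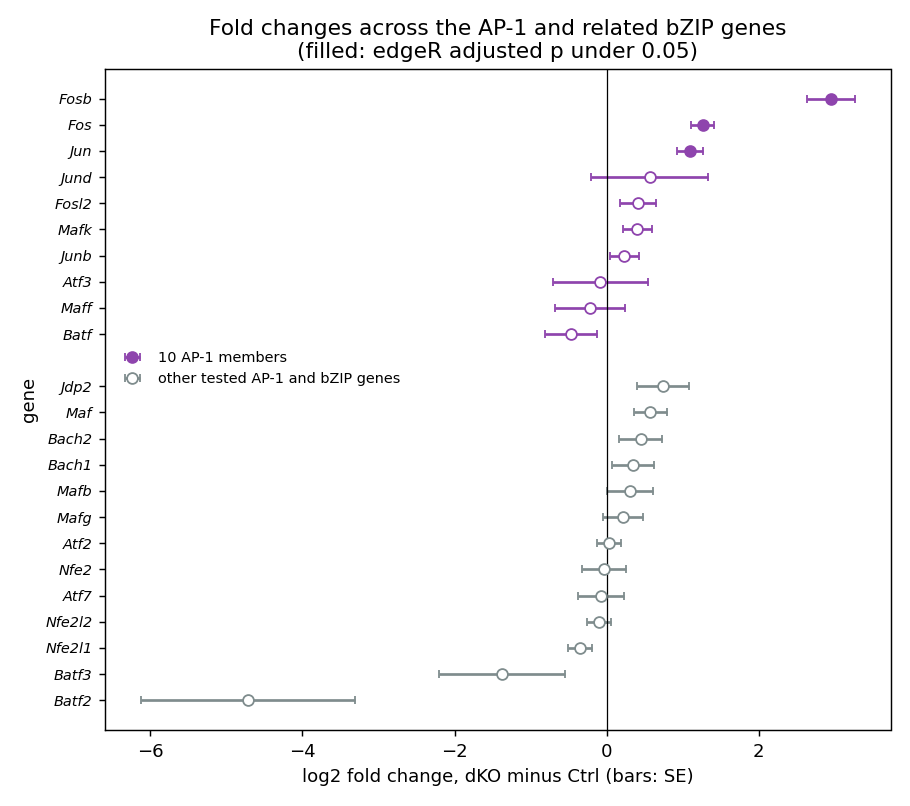
Log2 fold change of dKO minus Ctrl with its SE for the 10 AP-1 members and for 13 other tested genes of the bZIP class, with filled points for genes called by edgeR. Fosb, Fos and Jun hold the only filled points; the value of Batf2 rests on 0 and 2 counts in the dKO libraries.

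Levels of different genes were compared on the deposited TPM scale, which corrects for transcript length. The order in dKO cells was Junb (1088 ± 365 TPM), Fos (609 ± 2.83 TPM), Jun (421 ± 63.7 TPM), Mafk and Batf. In Ctrl cells the same 5 led in the same order, with Junb at 903 ± 41.5, Fos at 257 ± 3.63 and Jun at 191 ± 23.3 TPM (SD, n = 2 each). Mafk had 71.2 and 58.9 TPM in dKO and 52.9 and 43.02 TPM in Ctrl, and Batf 15.2 and 24.5 TPM in dKO and 26.4 and 27.65 TPM in Ctrl. No 2 neighbours among these 5 overlapped within a group, though Junb in dKO spread down to 831 TPM, near the Fos values. Below them the order differed: Fosb was the sixth in dKO at 5.49 and 5.74 TPM and the ninth in Ctrl at 0.67 and 0.70 TPM. In Ctrl, Fosb could not be separated from Jund (0.51 and 0.83 TPM), nor Fosl2 (3.01 and 4.37 TPM) from Atf3 (1.52 and 4.89 TPM). In dKO the lower 5 were Fosb, Fosl2 (5.35 and 4.21 TPM), Atf3, Jund and Maff; no 2 neighbours overlapped, but the nearest Fosb and Fosl2 values were closer than the SD of Fosl2 (0.806 TPM).

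All 10 transcripts together made up 2524 and 1909.8 TPM in dKO libraries, against 1422 and 1449 TPM in Ctrl libraries. The level of Jund is uncertain, and the deposited quantifications of Maff part, as given above. The pool, its shares and the order of levels therefore hold only for the deposited TPM. Fos took 24.2% and 31.8% of that pool in dKO and 17.9% in both Ctrl libraries. The share of Jun was 18.5% and 19.7% in dKO and 14.6% and 12.1% in Ctrl. Junb held 53.3% and 43.5% in dKO and 61.4% and 64.4% in Ctrl, so its share was lower in both dKO libraries although its level was not. Shares of a fixed total move against each other, and they follow from the same libraries as the fold changes. Fos per Junb transcript stood at 0.454 and 0.730 in dKO and 0.291 and 0.278 in Ctrl. By contrast Fos per Jun transcript, at 1.31 and 1.61 in dKO and 1.22 and 1.48 in Ctrl, overlapped between the groups.

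**Figure D3:**
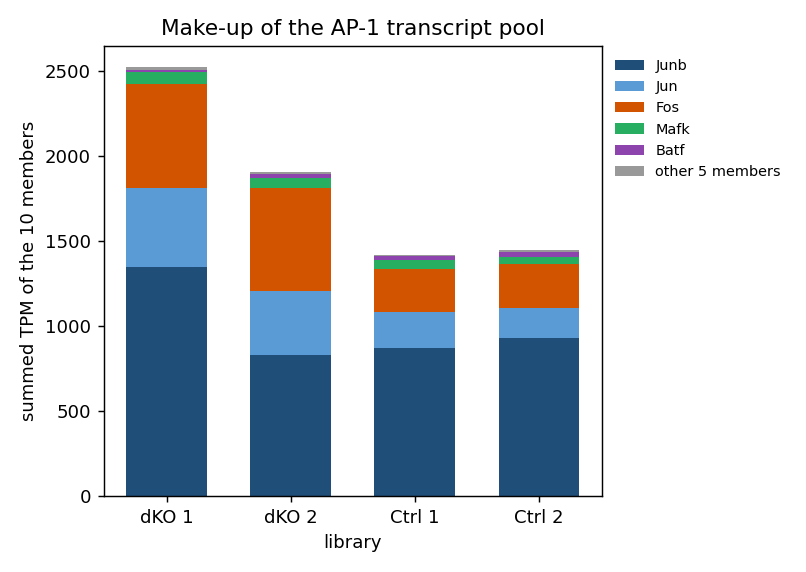
Summed TPM of the 10 AP-1 members in each library, divided by gene, with dKO libraries left of Ctrl libraries. The Fos and Jun blocks are taller in both dKO libraries, and the Junb block is tallest in dKO 1 and shortest in dKO 2.

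The 250 bases upstream of the RefSeq start of Fos, Fosb and Jun, the genes that rose, are shown on the strand of the gene, 5′ to 3′ (GRCm38.p6). They stand at chr12:85473640-85473889 (plus strand), chr7:19310046-19310295 (minus strand) and chr4:95052223-95052472 (minus strand). Capitals mark matches, on either strand, to any of 6 motifs. Of these, TGACTCA is the classical AP-1 site, TGACGT the core of the CREB site and TGACATCA an AP-1-like site. CGGAAG is a longer form of the core bound by the Ets family, to which GABP belongs. The others are CCAAT and the CArG box bound by SRF. Shorter Ets-family cores were not marked.
Fos: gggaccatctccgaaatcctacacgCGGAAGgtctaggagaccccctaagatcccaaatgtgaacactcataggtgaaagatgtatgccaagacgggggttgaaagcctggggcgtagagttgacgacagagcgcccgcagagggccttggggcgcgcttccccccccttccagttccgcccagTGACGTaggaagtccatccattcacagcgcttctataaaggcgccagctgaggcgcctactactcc
Fosb: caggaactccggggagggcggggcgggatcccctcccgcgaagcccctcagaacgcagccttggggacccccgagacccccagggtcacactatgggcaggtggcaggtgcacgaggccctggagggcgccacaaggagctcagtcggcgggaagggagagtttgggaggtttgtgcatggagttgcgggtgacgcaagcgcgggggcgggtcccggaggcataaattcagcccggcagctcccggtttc
Jun: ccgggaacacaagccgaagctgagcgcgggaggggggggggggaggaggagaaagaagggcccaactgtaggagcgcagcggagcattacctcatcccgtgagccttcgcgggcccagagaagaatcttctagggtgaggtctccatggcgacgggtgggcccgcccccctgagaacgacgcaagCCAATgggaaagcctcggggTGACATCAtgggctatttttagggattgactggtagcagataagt
In Fos, TGACGT lay 66 to 61 bases before the start and CGGAAG 225 to 220 bases before it. In Jun, TGACATCA lay 45 to 38 bases before the start and CCAAT 65 to 61 bases before it. Fosb held no match in this window, which says only that these letters are not there. The 3 windows thus shared none of the 6 motifs. Their GC contents were 58.4%, 68.8% and 61.2%, in the order printed, beside a median of 52.4% over all 32851 promoters of the table.

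All 10 members had a promoter in the RefSeq table, 1 start each except for Maff. CGGAAG occurred in 5 of them (Batf, Fos, Fosl2, Junb and Mafk), beside 13.6% of all promoters. Of these only Fos rose. TGACGT was found for 4 members (Atf3, Batf, Fos and Maff), beside 6.47% of all promoters, and TGACATCA for Jun and Maff, beside 2.93%. CCAAT occurred in Jun and Junb, beside 33.8% of all promoters. Neither TGACTCA (4.46% of all promoters) nor the CArG box (1.47%) occurred in the 250 bases upstream of any member. Sites farther upstream were not searched, so a member may hold either motif there. The motifs did not overlap one another in the printed windows, and a match is a description of letters, not a binding site. For Jund the table's start lies upstream of the gene in GENCODE, so its window may not be the promoter of the counted transcript. The windows of Atf3 and Fosl2, and those of Maff with a match, lie within the gene, downstream of its GENCODE start. The same limit holds for them.

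The rest of the family gave no call. Of 18 further AP-1 and bZIP genes, 13 were tested, 7 with a positive and 6 with a negative log2 fold change, and their median was 0.03 beside 0.01 over all tested genes. At an unadjusted p under 0.05 there were 2 of them, a level that 10.6% of all tested genes passed. Batf2, a relative of Batf, had 0 and 2 counts in dKO libraries and 42 and 22 counts in Ctrl libraries (edgeR adjusted p = 0.267). Maf, a large Maf factor, had 23.7 and 26.8 CPM in dKO and 17.6 and 16.2 CPM in Ctrl (log2 fold change 0.58, SE 0.22, edgeR adjusted p = 0.409). Fosl1, the remaining Fos gene, had 2 counts in 1 dKO library and 0 in the other 3 libraries, and Creb5, Mafa and Nrl had 0 in all 4.

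Genes that act upstream of AP-1 gave no call either. Among 26 tested MAP kinase genes, which carry the signals to Fos and Jun proteins, Mapk8, the gene of the Jun kinase JNK1, had the smallest p, with 77.5 and 64.3 CPM in dKO and 43.8 and 57.1 CPM in Ctrl (log2 fold change 0.49, SE 0.21, edgeR adjusted p = 0.451). Map2k5 followed at a log2 fold change of 0.44 (SE 0.22, adjusted p = 0.547), and the median of the list was 0.11. The 17 SRF, TCF and CREB genes, which switch on Fos, had a median of 0.10, with Crtc3 (0.32, SE 0.16) and Crtc1 (0.41, SE 0.20) leading at edgeR adjusted p of 0.554 and 0.555. For 17 tested genes of the decay and turnover of AP-1 mRNA and protein, the median was -0.01. Zfp36l2, which encodes an RNA-binding protein that marks mRNA for decay, had 395 and 253 CPM in dKO and 234 and 211 CPM in Ctrl (edgeR adjusted p = 0.430), and its relative Zfp36 was at 405 and 317 CPM in dKO and 300.3 and 315 CPM in Ctrl (adjusted p = 0.716).

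Among 9 partners from outside the bZIP class, Irf8 fell: 441 and 428 CPM in dKO libraries, against 807 and 903 CPM in Ctrl libraries (log2 fold change -0.98, SE 0.15, edgeR adjusted p = 0.0337). IRF8 is an interferon regulatory factor that binds DNA with BATF. Its gene was the only 1 called among the 9 partners, where 0.611% of all tested genes were called. Leaving out either dKO library ended that call while the log2 fold change stayed at -0.999 (adjusted p = 0.0677, without replicate 1) and -0.96 (0.0873, without replicate 2), as did the replicate block (-0.97, adjusted p = 0.0786). Irf4, the other partner of BATF, named after its values were seen, had 2.71 and 4.4 CPM in dKO and 15.4 and 12.9 CPM in Ctrl. Its groups did not overlap, and its log2 fold change of -1.99 (SE 0.35) did not pass (edgeR adjusted p = 0.0564). Of 23 tested genes with known AP-1 sites in one tissue or another, none was called. Among them 18 had a negative log2 fold change, where 51.6% of all tested genes were positive, and the median was -0.21. At an unadjusted p under 0.05 there were 6 of the 23, beside 10.6% of all tested genes. Odc1, the ornithine decarboxylase gene, had 6.16 and 5.76 CPM in dKO and 16.1 and 10.3 CPM in Ctrl (adjusted p = 0.232). Gclm, a glutathione synthesis gene, had 8.53 and 7.91 CPM in dKO and 3.67 and 4.79 CPM in Ctrl (adjusted p = 0.340).

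Other immediate early genes did not all move with Fos. Of 31 tested, 3 rose and none fell (edgeR): Dusp2, a MAP kinase phosphatase gene, at 626 and 638 CPM in dKO against 195 and 94.3 CPM in Ctrl (adjusted p = 0.0286), Klf4 at 8.53 and 11.2 CPM in dKO against 2.09 and 2.14 CPM in Ctrl (adjusted p = 0.0386), and Nfkbiz at 157 and 161 CPM in dKO against 82.1 and 82.9 CPM in Ctrl (adjusted p = 0.0441). Without dKO replicate 1 or 2 none of the 3 was called, although the log2 fold changes stayed near the reported ones: 2.14 and 2.11 for Dusp2 beside 2.13, 2.41 and 2.01 for Klf4 beside 2.22, and 0.96 and 0.93 for Nfkbiz beside 0.95. Klf4 was also not called with limma-voom (adjusted p = 0.0534), from RSEM counts (0.161) or without Ctrl replicate 1 (0.0646). Nfkbiz was not called with any library left out, with the replicate block (adjusted p = 0.0895), in a fit that is not robust (0.0525) or from RSEM counts (0.148, log2 fold change 0.70). The 3 calls higher and 0 lower among the 31 stand beside 0.316% and 0.295% of all tested genes. The list had a median log2 fold change of 0.18, with 21 positive and 10 negative values, where 51.6% of all tested genes were positive. At an unadjusted p under 0.05 there were 15 of the 31, beside the 10.6% of all tested genes. Among those 15 only Egr1 and Egr2 had a negative log2 fold change. Ppp1r15a had the smallest p of those not called, at 193 and 147 CPM in dKO and 84.6 and 97.0 CPM in Ctrl (edgeR adjusted p = 0.101). Egr1, named after its values were seen because it is commonly induced together with Fos, had 63.8 and 54.6 CPM in dKO and 106 and 84.7 CPM in Ctrl (log2 fold change -0.68, adjusted p = 0.222). Heat shock genes, which cell handling can induce, had no call among 10 tested, 9 negative values and a median of -0.28. Of these Hspd1 (457.8 and 389 CPM in dKO, 688 and 482 CPM in Ctrl, adjusted p = 0.463) and Hsp90ab1 (520.2 and 639 CPM in dKO, 940.5 and 638 CPM in Ctrl, adjusted p = 0.529) had the smallest p. Hspa1b and Hspb1, also on the list, had too few counts to be tested. Hspa1a, which was tested, had only 14 and 4 counts in dKO and 28 and 0 in Ctrl. The part of cell handling in the AP-1 values was not tested.

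The genes whose profile over the 4 libraries was nearest to that of Fos were Ubqln1, E130309D02Rik, Mtrf1l, Prkch and Rnf145, at root mean square distances of 0.053 to 0.098 on the log2 scale. The search covered 8158 genes whose average reached 10 CPM. Over 4 libraries in 2 groups such likeness is little more than a fold change of similar size. Ubqln1 (log2 fold change 1.31, adjusted p = 0.0386), Prkch (1.38, adjusted p = 0.0217) and Rnf145 (1.24, adjusted p = 0.0255) were called by edgeR, and E130309D02Rik (1.21, adjusted p = 0.0790) and Mtrf1l (1.34, adjusted p = 0.0834) were not.

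Fos and Fosb were called in all 14 alternative fits and Jun in 12 of the 14. Over these fits the log2 fold change ranged from 1.17 to 1.34 for Fos, from 2.78 to 3.09 for Fosb and from 0.94 to 1.29 for Jun. None of the other 7 genes was called in any fit that tested it, which for Jund was 13 of the 14. Over all genes these fits called 0.493% to 2.86% in either direction.

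**Figure D4:**
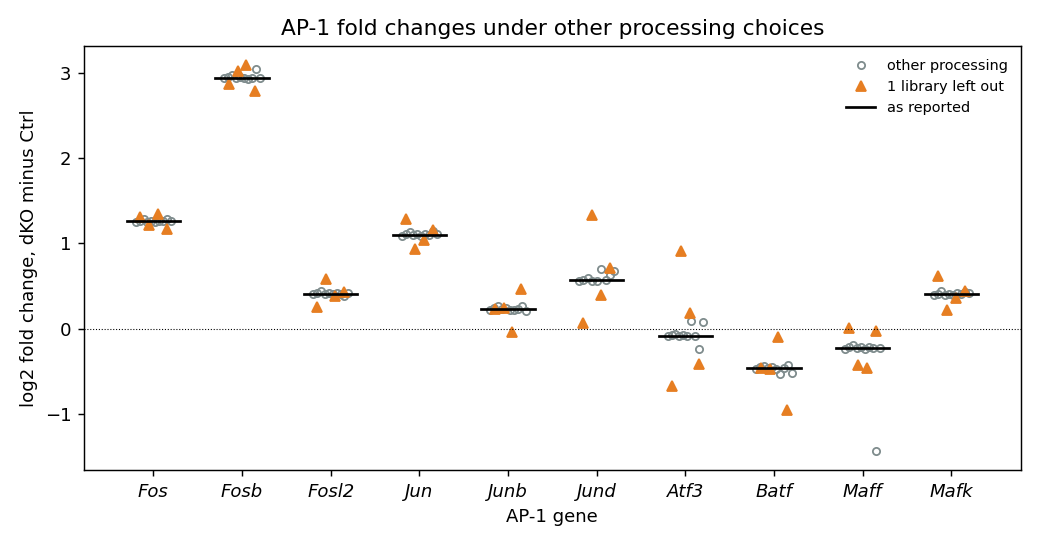
Log2 fold change of dKO minus Ctrl for each AP-1 gene, as reported (line), with other processing choices (open circles) and with 1 library left out (triangles). The Fos, Fosb and Jun points stay above 0.9, and the Jund, Atf3, Batf and Maff points spread widest.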

How the data were processed

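Counts per gene were deposited by the authors as whole numbers for 4 libraries of sorted bone marrow NK cells, together with RSEM tables. Per the file headers, those tables hold expected counts, TPM and FPKM values and gene lengths. Tools named in the submitters' processing notes are HTSeq 0.6.1 and RSEM 1.3.0, TopHat2 2.1.1, DESeq2 1.32.0, Trimmomatic 0.36 and FastQC 0.11.5, with the build mm9. No source used here states parameters, annotation or strand setting. Reads outside genes (18.1% to 24.3%) and ambiguous reads (2.20% to 2.34%) entered neither library sizes nor tests. The whole-number counts ran at about 2.05 to 2.07 times the expected counts, so counting error is larger than they alone would give if fragments were counted more than once.

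The counts were fitted over all genes with the robust quasi-likelihood test of edgeR 4.0.16 in R 4.3.3, with TMM scaling, a minimum count of 10 (13904 genes kept), genotype as the only term and Benjamini-Hochberg adjustment at 0.05. Fold changes are dKO minus Ctrl on the log2 scale, and SEs were derived from the F statistic. The fit was tested on simulated data with planted changes, of which genes of low abundance got none. It recovered 55.2% of 2-fold, 95.5% of 4-fold and 99.7% of 8-fold changes, and 6.41% of its calls were false. A gene that is not called may therefore still differ by 2-fold. DESeq2 1.42.0, limma 3.58.1 (voom), RSEM expected counts rounded to whole numbers, other scalings, filters and thresholds, a replicate block and leaving out each library were the alternatives. TPM, which the authors deposited, gave levels between genes, and FPKM their alternative; neither entered a test. The members, gene lists and the rule for named genes (all members; called genes of each list, up to 4, or the 2 with the smallest p; the 5 nearest to Fos with a pseudocount of 0.5 CPM) were chosen with earlier results of these data known. Gene positions are GRCm38 (GENCODE M21) matched by Ensembl identifier, and promoters are RefSeq GRCm38.p6. They are not coordinates of the mm9 build that the notes name. Protein sequences were not used here. No 2 libraries were alike within sampling noise (correlations across genes of 0.948 to 0.973). The 2 Ctrl libraries correlated at 0.961, as did Ctrl replicate 2 with dKO replicate 1, and the 2 dKO libraries at 0.973. Ctrl replicate 1 had the most counts but the fewest genes with a count, at 15921. Ctrl replicate 2 had 18206 such genes, and the dKO libraries had 19450 and 19220.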

Additional observations from a re-analysis of the deposited data

How the results depend on the processing

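The count of AP-1 genes called higher in dKO was 3 or 2 under all 15 alternatives, and the count called lower was 0. Without 1 library it ranged from 2 to 3; Jun was the gene lost. Not called in any fit, 3 genes turned sign. Junb ranged from -0.042 (without dKO replicate 1) to 0.46 when 1 library was left out, Maff from -0.46 to 0.0093 (without Ctrl replicate 1), and Atf3 from -0.67 to 0.92 (without Ctrl replicate 2; 0.19 without dKO replicate 1). Atf3 was also at 0.093 with limma-voom and 0.080 with the replicate block. Over all genes, calls higher and lower in dKO were 44 and 41 as reported, 256 and 303 without the count filter, 74 and 73 with the stricter filter, 183 and 215 with DESeq2, and 82 and 84 at an adjusted p under 0.10. Leaving out 1 library gave 31 to 94 higher and 32 to 93 lower, with 94 and 93 without Ctrl replicate 2. In the 7 surrounding lists, 3 higher and 1 lower as reported, the RSEM counts gave 1 higher and 2 lower. Calls lower were 2 with library totals, the stricter filter, DESeq2 or an adjusted p under 0.10, and 6 without the filter. Leaving out 1 library gave 0 to 2 higher and 0 to 3 lower there. Per kb of whole-number CPM, the Jun share of the pool was 14.9% in dKO and 10.4% in Ctrl, and the Fos share in Ctrl was 18.8%. The cause of these shifts was not tested.

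The replicate numbers share no stated source, and deviations of same-numbered libraries correlated at -0.0544 across genes. With the replicate block 3 AP-1 genes were called higher and 0 lower, over all genes 48 and 52, and in the surrounding lists 2 and 0, with Nfkbiz and Irf8 lost. Jund, Atf3 and Maff, under 5 CPM in every library, had SEs of 0.46 to 0.77 on the log2 scale, beside 0.15 for Fos. The Ctrl counts of Atf3 alone were 41 and 120; the part of depth and of replicate spread in these SEs was not tested.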
